A study of Homo sapiens with 9 samples.

Results

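The contrast described here set the mean of JAG1 knockout clones 1 and 2 against wild type in MDA-MB-231-D3H2LN cells, which derive from the basal-like breast cancer cell line MDA-MB-231 of human origin, over all 9 RNA sequencing libraries of the series. Its genes of interest were chosen by one criterion: all 6 knockout libraries had to lie on one side of all 3 wild-type libraries. That held for 602 of 16921 genes tested (3.56%), 168 above wild type (0.993%) and 434 below (2.56%), and 204 of the 602 (1.21% of genes tested) also passed the test of the contrast. These 204 genes are the members described below.

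Wild-type cells kept JAG1 and are labelled as the control, while both clones had been given Cas9 protein with guides against separate places of one JAG1 exon and are labelled as homozygous knockouts. Each clone grew from a single cell, so each knockout group is 1 line. The labels name no clonal control line, so a difference from wild type due to the loss of JAG1 cannot be told apart from one due to single-cell cloning. All groups grew in the same high-glucose medium with 10% fetal bovine serum and gave 3 libraries each. The labels do not state whether the replicates were grown separately. P-values therefore reflect the spread among these libraries alone, and this spread may be technical.

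JAG1 is a transmembrane ligand. It binds Notch receptors on neighbouring cells, after which the receptor is cut and its intracellular domain enters the nucleus, joins the DNA-binding protein RBPJ and turns on targets such as the HES and HEY repressors. In breast cancer JAG1 is known from studies of invasion and metastasis, and the series title places these lines in a study of lymph node metastasis.

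Total counts per library ran from 16890890 to 22456164. The line's defining genes VIM, CD44, EGFR and AXL were each at 211 or more CPM in all 9 libraries. CPM are counts scaled to library size by TMM normalisation. ESR1, PGR and CDH1 were near 0 (at most 1.29 CPM). EPCAM, also counted as low or absent in this line, was not near 0. It had 16.7 to 19.0 CPM in wild type, 21.8 to 25.4 in clone 1 and 11.5 to 13.7 in clone 2. Mitochondrially encoded mRNA took 1.66 to 3.67% of counts in wild type, 2.29 to 4.91% in clone 1 and 0.843 to 1.79% in clone 2, and its part in the results below was not tested. Summed markers of leukocytes were at most 4.53 CPM, with 4 of 9 at 0 in all libraries. In bulk samples, fewer cells of a type and less RNA per cell cannot be told apart.

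JAG1 mRNA was lower in every knockout library than in any wild-type library. It stood at 246, 161 and 181 CPM in wild type, at 110.3, 80.8 and 92.3 CPM in clone 1, and at 76.1, 68.1 and 56.5 CPM in clone 2. The groups did not overlap, and transcript remained in both clones. By edgeR's quasi-likelihood test the log2 fold change of the mean of both clones was −1.30 (SE 0.15, adjusted p = 8.51e-05), and the call held in all 9 leave-one-out fits, each of which omits 1 library. The gene lies on chromosome 20 (GRCh38, 10637684 to 10674107, minus strand), and counts cover all its exons, so they do not measure whether the protein is made.

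Across all genes, the shared change was mostly downward. At an adjusted p under 0.05, edgeR called 295 of 16921 genes (1.74%) in the mean of both clones: 37 were higher (0.219%) and 258 lower (1.52%). Changes over 2-fold were found for 10 of the higher and 190 of the lower genes. Of the called genes, 30 had all 6 knockout libraries above wild type (0.177% of genes tested) and 174 had all 6 below (1.03%). The median log2 fold change of all genes tested was −0.004. DESeq2 called 110 genes higher and 366 lower, and leaving out wild-type replicate 2 left 164 calls (13 higher, 151 lower).

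The mean of 2 clones can pass while the clones differ from one another, because the spread used by the fit is that within each line. The comparison of clone 2 with clone 1 sets no wild-type library against the clones. It uses the same estimate of spread per gene as the test of the mean, so these tests are not independent. It found 5733 genes (33.9%) different at an adjusted p under 0.05. Among the genes called in the mean, 150 of 295 (50.8%) also differed between the clones. This held for 11 of the 30 above wild type (36.7%) and 54 of the 174 below (31.0%). The one-sided rule keeps only genes with both clones on the same side of wild type, so it shapes these shares. The other 91 called genes had libraries that overlapped wild type, a split that itself selects for unlike clones, and 85 of them differed between the clones. When the 6 knockout libraries entered as 1 group, so that the difference between clones counted as spread, 32 genes were called, all lower and all with the 6 libraries below wild type. With the line as a random effect in limma-voom, only PKIA and SPARC were called (adjusted p = 0.0316 and 0.0016), and JAG1 was not (adjusted p = 0.812).

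**Figure D1:**
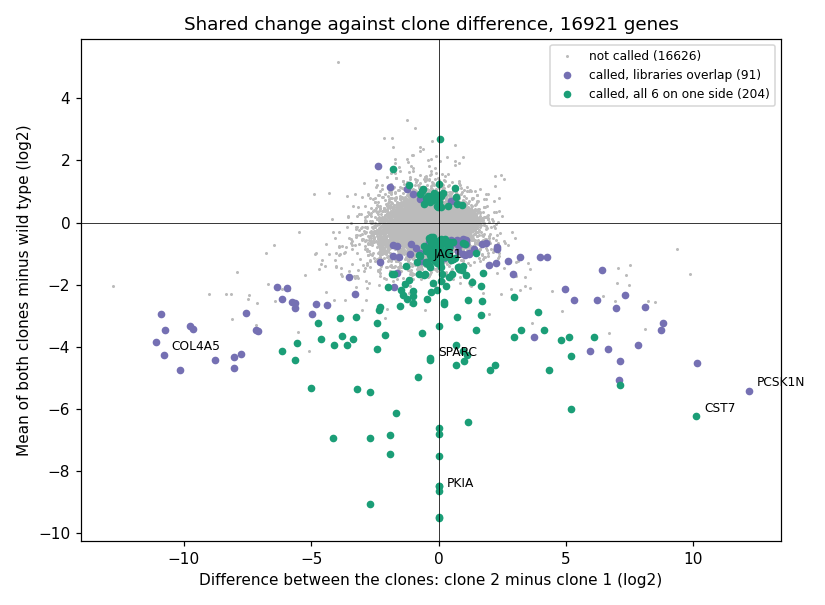
The vertical axis gives the log2 difference of the mean of both clones from wild type and the horizontal axis the log2 difference between the clones, 1 point per gene for 16921 genes. The 204 called genes with all 6 libraries on one side (green) lie mostly below 0, and the 91 called genes whose libraries overlap (purple) lie mostly far from the vertical line; positions of genes with 0 counts in a clone depend on the prior count of the fit.

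Against wild type on their own, clone 1 had 933 called genes (5.51%) and clone 2 had 1008 (5.96%), and both comparisons use the same 3 wild-type libraries. Of the 204 genes called in the mean with libraries on one side, 1 was called in neither clone alone. This was ANXA8, an annexin whose near-identical gene copies make its counts uncertain. Its wild-type libraries had 12.5, 6.35 and 3.72 CPM, those of clone 1 had 2.80, 0.475 and 0.278 and those of clone 2 had 2.35, 1.11 and 0.759 (log2 fold change −2.55, SE 0.57, edgeR adjusted p = 0.0471). Its call was lost in 6 of the 9 leave-one-out fits (without wild-type replicate 1 or 2, clone 1 replicate 2, or any clone 2 replicate, highest adjusted p 0.209) and with a correction for GC content and length (0.0602).

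Of the genes next to the threshold, PWWP2B, with a log2 fold change of −0.66, was inside at an adjusted p of 0.0498, while GBP3, with −0.49 and all 6 knockout libraries below wild type, was outside at 0.0508. The share of genes that were members varied by chromosome: 3.38% of the 266 genes tested on chromosome 18 and 2.34% of the 556 on the X chromosome were members, against 0.476% of the 840 on chromosome 7. Chromosome 5, with 771 genes tested, carried 8 of the 30 higher members, which made up 0.177% of all genes tested. The lower members had a median wild-type level of 7.85 CPM and the higher ones of 18.7 CPM, beside 16.5 CPM for all genes tested.

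The bases before the start of the members were compared with those of all genes. RefSeq promoters (GRCh38.p14, 250 bases before to 50 after the start) were found for 21 of the 30 higher members, 123 of the 174 lower members and 11568 of all genes tested. Both strands were searched for the motifs of RBPJ (GTGGGAA), AP-1 (TGANTCA), interferon response (TTTCNNTTT), the TATA box (TATAAA), TEAD (GGAATG) and the E-box of SNAI and ZEB (CAGGTG). The HES1 and HES4 promoters are shown because HES1 and HES4 are the Notch targets that fell, those of IFI27 and BST2 because they led the interferon genes, and those of LAMB3 and ZNF185 as examples of the E-box among higher members. They were chosen after the matches were known, and each line gives the 250 bases before the start, 5′ to 3′ along the gene, with matches to any of the 6 motifs in capitals.
HES1 (chr3:194135898-194136147, plus strand): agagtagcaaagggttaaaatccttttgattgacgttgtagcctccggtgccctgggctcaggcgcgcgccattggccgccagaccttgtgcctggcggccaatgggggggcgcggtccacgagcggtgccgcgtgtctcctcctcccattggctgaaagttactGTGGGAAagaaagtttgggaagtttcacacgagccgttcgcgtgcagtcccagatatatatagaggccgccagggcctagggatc
HES4 (chr1:1000098-1000347, minus strand): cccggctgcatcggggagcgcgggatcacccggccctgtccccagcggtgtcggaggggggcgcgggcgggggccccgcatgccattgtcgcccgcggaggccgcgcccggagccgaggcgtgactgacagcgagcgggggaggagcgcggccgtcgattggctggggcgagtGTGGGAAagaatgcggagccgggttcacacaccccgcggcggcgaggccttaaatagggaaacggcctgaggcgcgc
IFI27 (chr14:94110486-94110735, plus strand): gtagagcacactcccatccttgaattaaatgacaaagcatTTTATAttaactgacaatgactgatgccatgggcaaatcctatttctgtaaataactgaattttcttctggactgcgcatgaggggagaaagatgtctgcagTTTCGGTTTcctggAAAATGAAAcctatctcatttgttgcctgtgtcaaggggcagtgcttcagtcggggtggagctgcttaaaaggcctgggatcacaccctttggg
BST2 (chr19:17405631-17405880, minus strand): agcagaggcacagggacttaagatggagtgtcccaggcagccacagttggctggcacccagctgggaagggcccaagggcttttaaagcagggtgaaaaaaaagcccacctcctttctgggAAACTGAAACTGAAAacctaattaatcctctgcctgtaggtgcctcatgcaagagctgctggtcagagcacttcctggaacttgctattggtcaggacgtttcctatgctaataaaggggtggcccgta
LAMB3 (chr1:209652426-209652675, minus strand): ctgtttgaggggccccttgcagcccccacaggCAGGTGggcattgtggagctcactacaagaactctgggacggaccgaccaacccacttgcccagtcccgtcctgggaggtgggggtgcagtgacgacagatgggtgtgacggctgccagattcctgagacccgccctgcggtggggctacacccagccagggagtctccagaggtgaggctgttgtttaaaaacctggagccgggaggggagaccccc
ZNF185 (chrX:152914182-152914431, plus strand): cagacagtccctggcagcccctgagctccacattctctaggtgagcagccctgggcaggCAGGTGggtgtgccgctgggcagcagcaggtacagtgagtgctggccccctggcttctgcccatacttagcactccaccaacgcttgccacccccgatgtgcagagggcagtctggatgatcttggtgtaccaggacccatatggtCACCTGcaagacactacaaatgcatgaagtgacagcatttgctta

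The RBPJ letters were found once in each of the HES promoters, 85 and 77 bases before the start. Over the 300-base window they occurred in 0 of 21 promoters of higher members, in 5 of 123 (4.07%) of lower members and in 5.79% of all promoters. The interferon response letters occurred at 2 places in each of the IFI27 and BST2 promoters, which overlap in BST2, and the remaining capitals in IFI27 are a TATA match on the opposite strand. Those interferon letters were in 8.94% of the lower, 4.76% of the higher and 7.15% of all promoters. The E-box letters were in 9 of 21 (42.9%) of the higher, 17.1% of the lower and 18.5% of all promoters. The TATA letters were in 17.9% of the lower and 14.3% of the higher promoters, beside 6.0% of all. The AP-1 letters were in 9.52% of the higher, 7.32% of the lower and 4.99% of all promoters, and the TEAD letters in 9.52, 8.13 and 11%. The median ratio of observed to expected CpG was 0.814 in the higher, 0.664 in the lower and 0.83 in all promoters. A match is a description of these letters and does not show binding.

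Genes of adhesion, the cytoskeleton and receptors were among the shared increases. LAMB3, the beta chain of the basement membrane protein laminin-332, had 182, 129 and 215 CPM in wild type, 319.8, 283 and 313 in clone 1, and 368, 273 and 336 in clone 2. Every knockout library exceeded the highest wild-type library (log2 fold change 0.85, SE 0.16, edgeR adjusted p = 0.00963). The difference between the clones was 0.09 (95% interval −0.29 to 0.48). KRT15, a keratin of basal epithelial cells, had 4.32, 5.88 and 4.22 CPM in wild type against 7.83 to 10.9 CPM over the 6 knockout libraries (0.94, SE 0.20, adjusted p = 0.0225). ZNF185, an actin-associated LIM protein, had 102, 71.9 and 121 CPM against 130.0 to 209 CPM (0.79, SE 0.17, adjusted p = 0.0183). Clone 2 minus clone 1 was −0.17 for KRT15 and −0.17 for ZNF185, and in none of these 3 genes did the clones differ past the threshold. Without wild-type replicate 2, LAMB3 and ZNF185 dropped out (adjusted p = 0.0726 and 0.142). ZNF185 also dropped out without wild-type replicate 1 (0.0581). KRT15 dropped out without wild-type replicate 1 or 3, clone 1 replicate 2 or 3, or clone 2 replicate 2 (highest adjusted p 0.126).

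Receptors among the shared increases spanned different families. CXCR4, the chemokine receptor for CXCL12 that guides cells to lymph nodes and bone marrow, had 18.6, 12.7 and 16.4 CPM in wild type, 30.0, 39.0 and 31.5 in clone 1, and 31.1, 22.2 and 21.4 in clone 2. The lowest knockout library was above the highest wild-type one (log2 fold change 0.86, SE 0.17, edgeR adjusted p = 0.0114). MERTK, a receptor tyrosine kinase of the TAM family that takes part in the clearance of dying cells, had 14.0, 15.4 and 21.9 CPM in wild type against 23.2 to 40.2 CPM in the knockouts (0.85, SE 0.19, adjusted p = 0.0288). Both receptors depended on single wild-type libraries: without wild-type replicate 2 their adjusted p was 0.109 and 0.194. MERTK held in 3 of 9 such fits, losing its call without wild-type replicate 1 (0.159), clone 1 replicate 2 or 3, or clone 2 replicate 2 or 3 (up to 0.0855).

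The increases that held whichever library was left out were few. Of the 204 members, 96 were called in all 9 such fits, 6 of them higher. MAST4, a microtubule-associated kinase, was 1 of the 6, with 14.9, 14.5 and 19.1 CPM in wild type, 29.5, 25.4 and 33.6 in clone 1 and 26.1, 30.4 and 33.7 in clone 2. The clones had nearly the same level of it (log2 fold change 0.88, SE 0.15, edgeR adjusted p = 0.00412, clone difference 0.03 with a 95% interval of −0.33 to 0.38). ZDHHC21, a palmitoyltransferase, rose from 8.16, 7.57 and 12 CPM to 17.2, 15.8 and 15.1 CPM in clone 1 and to 23.5, 29.6 and 22.2 CPM in clone 2 (1.12, SE 0.18, adjusted p = 0.00224). AHRR, the repressor of the aryl hydrocarbon receptor, rose from 7.29, 6.64 and 6.79 CPM to 14.0 to 23.2 CPM in clone 1 and 9.11 to 14.0 CPM in clone 2 (1.07, SE 0.20, adjusted p = 0.00776). These last genes differed between the clones, ZDHHC21 being higher in clone 2 (0.65, adjusted p = 0.0181) and AHRR in clone 1 (−0.62, adjusted p = 0.0388).

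Other protein-coding increases taken by the naming rule were MAL2, a transcytosis protein of epithelial cells, and ST3GAL1, a sialyltransferase. MAL2 had 25.4, 51.5 and 36.5 CPM in wild type, with 76.4 to 113 CPM in clone 1 and 51.6 to 69.5 CPM in clone 2, so its lowest knockout library was just above the highest wild-type one (log2 fold change 1.03, SE 0.20, edgeR adjusted p = 0.0108). ST3GAL1 had 42.5, 37.3 and 45.3 CPM against 53.5 to 74.7 CPM (0.67, SE 0.13, adjusted p = 0.0113). MAL2 dropped out without wild-type replicate 3 (0.0743) and ST3GAL1 without wild-type replicate 2 (0.110). Of the long noncoding RNAs, LINC01322 rose from 1.80, 1.02 and 1.81 CPM to 7.56 to 12.2 CPM in clone 1 and 1.98 to 3.70 CPM in clone 2 (1.73, SE 0.31, adjusted p = 0.00520). RGMB-AS1 (0.93, adjusted p = 0.0232) and LINC00973 (0.77, adjusted p = 0.0120) rose as well. All 3 were higher in clone 1 than in clone 2, and RGMB-AS1 reads cannot be told apart from those of its antisense partner, since the strand setting of the counting is unknown. RGMB-AS1 was lost without wild-type replicate 2 or 3 or clone 1 replicate 1 or 3 (up to 0.176), and LINC00973 without wild-type replicate 1 or 2 (up to 0.102).

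**Figure D2:**
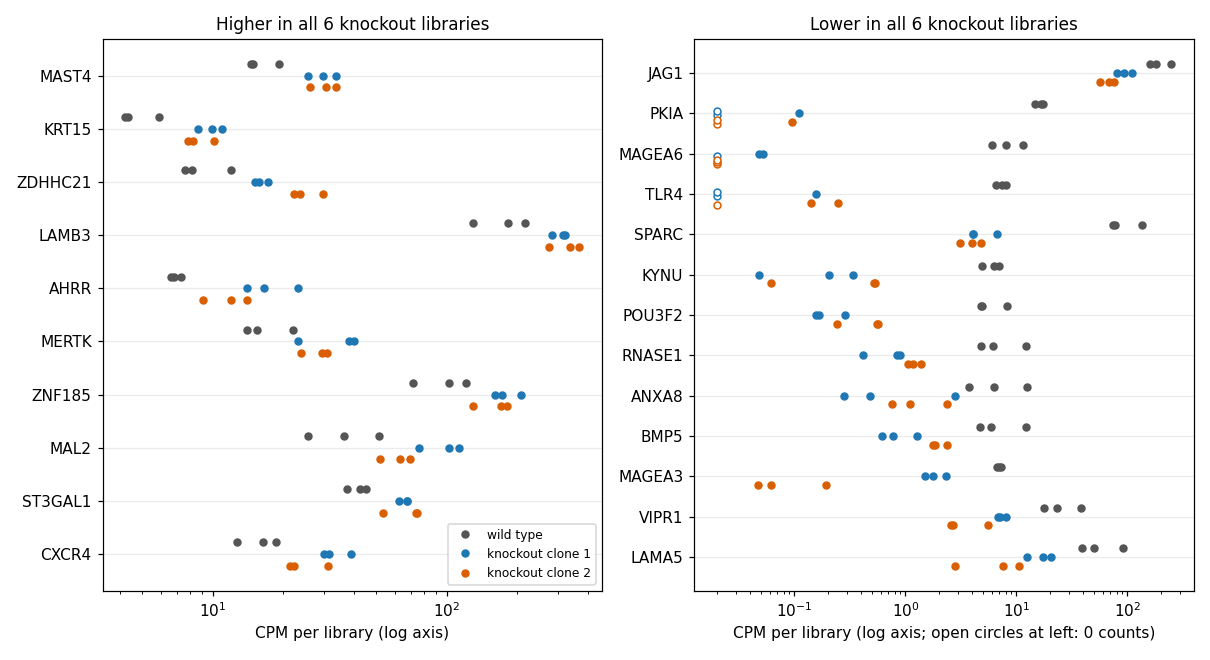
Each point is 1 library, in CPM on a log axis, for 10 protein-coding genes named as higher (left) and JAG1 with the 12 named as lower (right); grey is wild type, blue clone 1 and orange clone 2. Increases such as LAMB3 and MAST4 put all 6 knockout libraries just above wild type, whereas PKIA, MAGEA6 and TLR4 are at or near 0 counts in all 6 knockout libraries.

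The deepest shared decreases left almost no transcript in either clone. PKIA, which inhibits protein kinase A, had 17.5, 16.5 and 14.6 CPM in wild type and at most 0.111 CPM in any knockout library. Over the 3 wild-type libraries it had 1042 counts and over the 6 knockout libraries 4, a depth-corrected ratio of 472 (95% counting interval 184 to 1736). TLR4, the innate immune receptor that senses bacterial lipopolysaccharide, had 7.48, 8.08 and 6.49 CPM in wild type and at most 0.247 CPM in the knockouts (474 counts against 10, ratio 85.9, interval 46.3 to 180). NRXN3, a presynaptic adhesion protein, had 143 counts in wild type and 0 in the knockouts, a fall of at least 86.4-fold, with the floor of 3 counts set over the 6 libraries. In these genes both clones were at or near 0, and edgeR gave adjusted p = 9.94e-09 for PKIA, 2.25e-06 for TLR4 and 0.000143 for NRXN3. These intervals and floors cover counting error only.

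SPARC, a secreted matrix glycoprotein that binds collagen, was the most abundant of the strongly lowered genes. It had 136, 74.8 and 76.8 CPM in wild type, 6.73, 4.04 and 4.07 in clone 1, and 4.82, 3.97 and 3.13 in clone 2. The groups did not overlap by a wide margin (log2 fold change −4.44, SE 0.21, edgeR adjusted p = 1.79e-08), and the clones differed by −0.32 (95% interval −0.93 to 0.28). SPARC was called under every alternative run, including those that count the difference between clones as spread.

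Enzymes, a transcription factor and signalling proteins were also among the 12 named decreases. KYNU, kynureninase of tryptophan breakdown, had 4.91, 7.02 and 6.29 CPM in wild type and 0.0475 to 0.533 CPM in the knockouts (log2 fold change −4.45, SE 0.44, edgeR adjusted p = 1.97e-05). POU3F2, a POU-domain transcription factor known from neural cells and melanoma, had 8.21, 4.82 and 4.88 CPM against 0.155 to 0.569 CPM (−4.26, SE 0.36, adjusted p = 3.63e-06). RNASE1, a secreted ribonuclease, had 4.81, 12.1 and 6.13 CPM against 0.414 to 1.38 CPM (−3.04, SE 0.32, adjusted p = 5.53e-05). The clones did not differ past the threshold in these 3 genes, with clone 2 minus clone 1 intervals of −0.46 to 2.45, −0.06 to 2.30 and −0.20 to 1.67. BMP5, a bone morphogenetic protein, had 5.88, 12.1 and 4.73 CPM in wild type, 0.613 to 1.28 CPM in clone 1 and 1.76 to 2.37 CPM in clone 2 (−2.49, SE 0.32, adjusted p = 0.000262). VIPR1, a receptor for vasoactive intestinal peptide, had 17.8, 37.9 and 23.1 CPM, 6.89 to 8.02 in clone 1 and 2.56 to 5.52 in clone 2 (−2.35, SE 0.25, adjusted p = 6.31e-05). Here the clones differed, BMP5 being lower in clone 1 (1.15, adjusted p = 0.0458) and VIPR1 lower in clone 2 (−1.02, adjusted p = 0.0217). KYNU, POU3F2, RNASE1, BMP5 and VIPR1 were called in all 9 leave-one-out fits and in the fit with 1 knockout group.

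Of the 5 long noncoding RNAs among the lower members, those that met the naming rule fell by less than the protein-coding genes named above. LINC00511 had 46.3, 48.0 and 42.0 CPM in wild type and 25.6 to 34.8 CPM in the knockouts (log2 fold change −0.56, SE 0.13, edgeR adjusted p = 0.0284). FGD5-AS1 had 208, 194 and 178 CPM against 121 to 157 CPM (−0.47, SE 0.11, adjusted p = 0.0373), with the same limit on strand. Neither held throughout: with the GC and length correction LINC00511 dropped out (0.0539). LINC00511 was called in 3 and FGD5-AS1 in 2 of 9 leave-one-out fits (highest adjusted p 0.176 and 0.205), failing without wild-type replicates 1 and 2, clone 1 replicates 1 and 3 and clone 2 replicates 2 and 3, and FGD5-AS1 also without clone 1 replicate 2.

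Gene lists from general knowledge show which groups the members belong to. The 40 lists held 828 distinct genes tested, of which 64 (7.73%) were called, 7 higher and 57 lower, against 1.74% of all genes. The lists and members were chosen with earlier results of these data known, so that share is a description. For the counts per list below, 1.52% of all genes tested were called lower and 0.219% higher. All 6 knockout libraries were below wild type in 2.56% of them. By edgeR's test 1590 of the 16921 genes tested had an unadjusted p under 0.05.

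**Figure D3:**
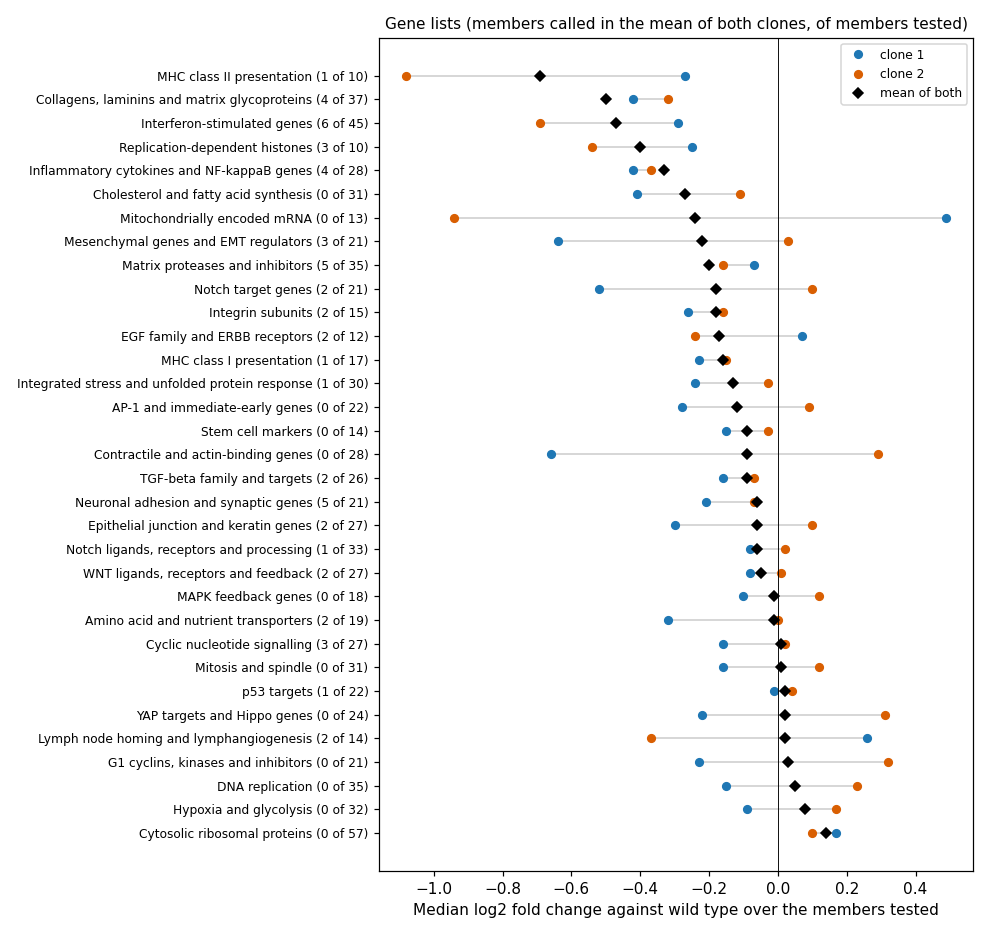
Median log2 fold change over the members tested of each list with at least 10 members tested, for clone 1 (blue), clone 2 (orange) and their mean (black), with called and tested members in brackets; the cancer-testis list, whose median depends on genes at 0 counts, is left out. Interferon-stimulated genes (6 of 45 called) and matrix genes (4 of 37) lie left of 0 in both clones, while contractile genes lie on opposite sides.

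In the mean of both clones, 1 gene of the list of Notch ligands, receptors and processing genes passed the test, JAG1 not being on that list. Of 33 ligands, receptors and processing genes tested, 1 was higher, 0 were lower and 32 did not pass (median −0.06, all genes −0.004), and 7 had an unadjusted p under 0.05. That level was reached by 1590 of the 16921 genes tested. The clones differed in 12 of the 33, beside 33.9% of all genes. Among the 12 were the ubiquitin ligase genes NEURL1B (−0.69 in clone 1 and 0.36 in clone 2, adjusted p of the difference 0.000164) and FBXW7 (0.71 and −0.49, 0.000164). The gene that rose was RBPJ, the DNA-binding partner of Notch, with 179, 194 and 266 CPM in wild type, 290, 297 and 256 in clone 1, and 432, 404 and 450 in clone 2 (log2 fold change 0.71, SE 0.15, edgeR adjusted p = 0.0168). One clone 1 library lay within the wild-type range, and the clones differed (0.61, adjusted p = 0.0103). The call ended without wild-type replicate 1 or 2 (adjusted p = 0.139 and 0.125). Among the receptors the log2 fold change of NOTCH1 was −0.09 (adjusted p = 0.95), that of NOTCH2 −0.06 (0.966), that of NOTCH3 −0.54 (0.377) and that of NOTCH4 0.00 (1). NOTCH2 was the receptor with the most reads, at 206 to 329 CPM over the 9 libraries, a comparison not corrected for gene length. The other ligand genes tested were JAG2 (−0.15, adjusted p = 0.871), DLL1 (−0.64, 0.568) and the noncanonical ligand DLK2 (0.09, 0.95). The secretase genes PSEN2 (−0.14), NCSTN (−0.02), APH1A (0.06) and PSENEN (0.06), which encode the complex that cuts the receptor, had adjusted p of 0.874 or more.

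Of 21 Notch target genes tested, 2 were lower, 0 were higher and 19 did not pass (median −0.18), with 6 at an unadjusted p under 0.05. HES1, the repressor whose promoter is shown above, had 43.3, 39.7 and 40.8 CPM in wild type, 24.8, 24.9 and 23.1 in clone 1, and 31.0, 20.6 and 20.5 in clone 2. All 6 knockout libraries were below the lowest wild-type library (log2 fold change −0.78, SE 0.14, edgeR adjusted p = 0.00593), and the clones differed by −0.02 (95% interval −0.37 to 0.34). HES1 was called in all 9 leave-one-out fits. HES4 had 12.2, 12.7 and 5.93 CPM in wild type, 6.32 to 7.30 CPM in clone 1 and 3.78 to 4.39 CPM in clone 2, so clone 1 overlapped wild type (−0.99, SE 0.23, adjusted p = 0.0345). Its call held in 2 of the 9 fits (up to 0.300, without wild-type replicate 2, and lost without wild-type replicate 1, any clone 1 replicate or clone 2 replicates 2 and 3) and was lost with a correction for GC content and length (0.243) and in limma-voom (0.0774). SNAI2, a repressor of E-cadherin, was below wild type in all 6 libraries and just missed the threshold (−0.72, adjusted p = 0.0588).

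Some other Notch targets had fitted changes of opposite sign in the 2 clones, which made the mean small. CCND1, cyclin D1, had a mean change of 0.03 (adjusted p = 0.989), from −0.52 in clone 1 and 0.58 in clone 2, a clone difference of 1.10 (adjusted p = 0.000221). SOX9 had 0.07 (−0.48 and 0.62), MYC 0.06 (−0.31 and 0.43) and GATA3 −0.18 (−0.66 and 0.30). Against wild type by edgeR's test, MYC passed in neither clone (adjusted p = 0.325 in clone 1 and 0.158 in clone 2). CCND1 and SOX9 passed in clone 2 only (0.0463 and 0.0313), and GATA3 in clone 1 only (0.0386). In all, 11 of the 21 targets differed between the clones, beside 33.9% of all genes. HEY1 (−0.27, adjusted p = 0.939) and HEYL (0.11, 0.981), the other classical targets of the family, were under 5 CPM in all libraries, and their standard errors were 0.40 and 0.34.

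Interferon-stimulated genes were among the lists with the most decreases: 6 of 45 tested were lower, 0 were higher and 39 did not pass (median −0.47), with 8 genes below wild type in all 6 libraries. Over all genes tested, 1.52% were called lower and 2.56% had all 6 libraries below wild type. IFI27, an interferon-induced mitochondrial protein, had 16.9, 19.2 and 12.6 CPM in wild type, 5.85, 5.09 and 4.68 in clone 1, and 2.72, 1.89 and 1.33 in clone 2 (log2 fold change −2.34, SE 0.22, edgeR adjusted p = 9.62e-06). BST2, which tethers budding viruses to the cell, had 21.9, 35.4 and 18.2 CPM, then 8.65, 11.8 and 8.58, and 7.55, 8.72 and 3.18 (−1.67, SE 0.26, adjusted p = 0.00288). Both genes separated all knockout from all wild-type libraries, and clone 2 had less IFI27 than clone 1 (−1.41, adjusted p = 0.00153). EPSTI1 fell from 4.08, 4.19 and 2.66 CPM to 0.309 to 1.89 CPM (−1.66, adjusted p = 0.0281), and held in 5 of 9 fits (it ended without wild-type replicate 1 or 2 or clone 1 replicate 1 or 2, up to 0.184). OASL, an antiviral protein of the 2′-5′ oligoadenylate synthetase family, was carried by clone 2 alone, with 6.68 to 19.1 CPM in clone 1, 0.533 to 1.48 CPM in clone 2 and 7.19 to 18.0 CPM in wild type (clone difference −3.52, adjusted p = 0.000394). Its call in the mean held in 3 of 9 fits (it ended without wild-type replicate 1 or 2, clone 1 replicate 2 or any clone 2 replicate, up to 0.174) and not in limma-voom (0.0642).

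Antigen presentation genes had 1 call in each class. Of 17 class I genes 1 was lower (median −0.16, 4 at an unadjusted p under 0.05), and of 10 class II genes 1 was lower (median −0.69, 5 at that level), with 0 higher in each. The class II median was −0.27 in clone 1 and −1.08 in clone 2. PSMB9, a subunit of the immunoproteasome, had 11.6, 12.5 and 9.60 CPM in wild type and 3.27 to 7.98 CPM in the knockouts (−1, SE 0.23, edgeR adjusted p = 0.0361; it ended without wild-type replicate 1 or 2, clone 1 replicate 2 or 3 or clone 2 replicate 2, up to 0.188). HLA-DPA1 had 2.91, 3.60 and 2.06 CPM, 0.808 to 1.40 in clone 1 and 0.291 to 0.474 in clone 2 (−2.16, SE 0.37, adjusted p = 0.00389; 0.0576 without wild-type replicate 2). Both were below wild type in all 6 libraries.

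Inflammatory genes fell in part. Of 28 tested, 4 were lower, 0 were higher and 24 did not pass (median −0.33). In 7 of the 28 all 6 libraries were below wild type, beside 2.56% of all genes tested. The 4 called lower were TLR4, ICAM1, IL1B and SAA1. ICAM1, an adhesion molecule for leukocytes, had 3.59, 7.24 and 3.72 CPM in wild type, 0.259, 0.523 and 0.613 in clone 1, and 0.619, 1.60 and 2.28 in clone 2 (log2 fold change −2.52, SE 0.39, edgeR adjusted p = 0.00167). IL1B, the cytokine interleukin-1 beta, had 4.18, 6.09 and 3.37 CPM against 0.617 to 2.18 CPM (−1.66, SE 0.34, adjusted p = 0.0150; 0.173 without wild-type replicate 2). SAA1, an acute-phase protein, had 2.43, 3.72 and 2.66 CPM against 0.186 to 1.45 CPM (−2.04, SE 0.49, adjusted p = 0.0404). SAA1 held in 3 of 9 fits, those without clone 1 replicate 1 or clone 2 replicate 1 or 2 (highest adjusted p 0.273 otherwise), and dropped out with the GC and length correction (0.0523).

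Matrix genes of the list used here fell more often than they rose. Of 37 collagens, laminins and matrix glycoproteins tested, 4 were lower, 0 were higher and 33 did not pass (median −0.50). The list holds neither LAMB3, called higher, nor SPARC and FN1, called lower, which are counted in other lists. LAMA5, the alpha chain of laminin-511, had 39.2, 91.8 and 49.9 CPM in wild type, 12.5, 17.5 and 20.7 in clone 1, and 2.78, 10.6 and 7.5 in clone 2 (log2 fold change −2.47, SE 0.36, edgeR adjusted p = 0.00623; it ended without clone 2 replicate 3, 0.0717, and with no filter on low counts, 0.0596). LAMA4, another laminin alpha chain, had 7.87, 6.52 and 7.39 CPM against 2.28 to 5.32 CPM (−1.14, SE 0.23, adjusted p = 0.0121; 0.0748 without wild-type replicate 1). Laminin chains thus moved in both directions, LAMB3 up and LAMA5 and LAMA4 down, in all 6 libraries each. SPP1, the secreted phosphoprotein osteopontin, had 2.04, 6.94 and 1.86 CPM against 0.678 to 0.984 CPM (−2.23, SE 0.41, adjusted p = 0.00689; 0.379 without wild-type replicate 2 and 0.0517 in limma-voom). The fourth, COL4A5, had no counts in clone 2 and was higher in clone 1 than in wild type (log2 fold change 1.15, edgeR adjusted p = 0.0263). Summed fibroblast markers were 31.4 to 64.9 CPM in wild type, 27.9 to 32.5 in clone 1 and 17.6 to 21.7 in clone 2, with LUM at 0.124 to 0.664 CPM in clone 2, and their part in these changes was not tested.

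Of 21 genes of mesenchymal cells and of the epithelial-mesenchymal switch, 3 were lower, 0 were higher and 18 did not pass (median −0.22). SPARC was the only one of the 3 with all 6 libraries below wild type. FN1, fibronectin, had 1278, 849 and 813 CPM in wild type, 413, 276 and 310.0 in clone 1, and 1069, 472 and 531 in clone 2 (log2 fold change −1.03, SE 0.24, edgeR adjusted p = 0.0404). It held in 3 of 9 fits, losing its call without any 1 wild-type replicate, clone 1 replicate 2 or 3 or clone 2 replicate 3 (highest adjusted p 0.226), and was lost in DESeq2 (0.0812) and with the GC and length correction (0.158). S100A4, a calcium-binding protein of motile cells, had 206, 279.5 and 125 CPM in wild type and 174 to 205 CPM in clone 1, within that range, but 21.3 to 53.6 CPM in clone 2 (−1.28, adjusted p = 0.0299; it ended without wild-type replicate 1 or 2, clone 1 replicate 2 or 3 or clone 2 replicate 2, up to 0.151). Of 27 epithelial junction and keratin genes, LAMB3 was higher, KRT7 lower and 25 did not pass (median −0.06), and the list does not hold the keratin KRT15 described above. KRT7 had 292, 249 and 185 CPM in wild type, 91.8 to 129 in clone 1 and 166 to 237 in clone 2 (−0.71, adjusted p = 0.0268; it ended without wild-type replicate 1 or 2 or clone 1 replicate 2 or 3, up to 0.182). Summed myoepithelial markers were 43.9 to 47.7 CPM in wild type, 18.0 to 20.0 in clone 1 and 28.0 to 48.4 in clone 2, and luminal markers 232 to 346, 177 to 304 and 236 to 419, and their part in these values was not tested.

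Integrins moved in both directions. Of 15 tested, ITGB4 was lower, ITGA2 higher and 13 did not pass (median −0.18). ITGB4, which pairs with integrin alpha-6 as the laminin receptor of hemidesmosomes, had 253, 268 and 232 CPM in wild type, 108, 166 and 139 in clone 1, and 123, 111 and 93.6 in clone 2 (log2 fold change −1.03, SE 0.14, edgeR adjusted p = 0.000400). The groups were well apart and the clones differed by −0.33 (95% interval −0.68 to 0.02). ITGA2, the collagen-binding alpha-2 subunit, had 202, 173 and 216 CPM in wild type, 356, 348 and 373 in clone 1, and 251, 229 and 246 in clone 2 (0.58, SE 0.13, adjusted p = 0.0207), a rise larger in clone 1 (clone difference −0.57, adjusted p = 0.00618). It was lost without wild-type replicate 1 or 2 or clone 1 replicate 3 (up to 0.184).

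Proteases and their inhibitors gave 5 lower genes of 35 tested, 0 higher and 30 not passing (median −0.20). CST3, cystatin C, had 154, 157 and 153 CPM in wild type, 76.7, 87.5 and 79.7 in clone 1, and 131, 116 and 116 in clone 2 (log2 fold change −0.64, SE 0.11, edgeR adjusted p = 0.00329). CST7, cystatin F, was at 0 counts in clone 1 and at 3.77 to 8.45 CPM in clone 2, from 11.5, 17.9 and 17.5 CPM in wild type, so that it was at least 306-fold lower in clone 1 and 2.20-fold lower in clone 2 (counting interval 1.96 to 2.48). Both cystatins, inhibitors of cysteine cathepsins, were lower in each clone and lower in clone 1 than in clone 2. CTSL, cathepsin L, had 54.3, 49.0 and 55.7 CPM against 33.8 to 41.8 CPM (−0.53, SE 0.12, adjusted p = 0.0226). ADAMTS9, a proteoglycan-cleaving protease, had 5.78, 5.20 and 5.28 CPM against 1.73 to 2.51 CPM (−1.32, SE 0.25, adjusted p = 0.00776; 0.0528 without wild-type replicate 1). MMP15, a membrane-type matrix metalloproteinase named after its values were seen, also fell (−0.99, adjusted p = 0.0465) but overlapped wild type in clone 2 and stayed called only without clone 2 replicate 1 (up to 0.211 in the other leave-one-out fits) and not with the GC and length correction (0.0911). CTSL held in 3 of 9 fits (it ended without any wild-type replicate, clone 1 replicate 1 or 3 or clone 2 replicate 2, up to 0.102).

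**Figure D4:**
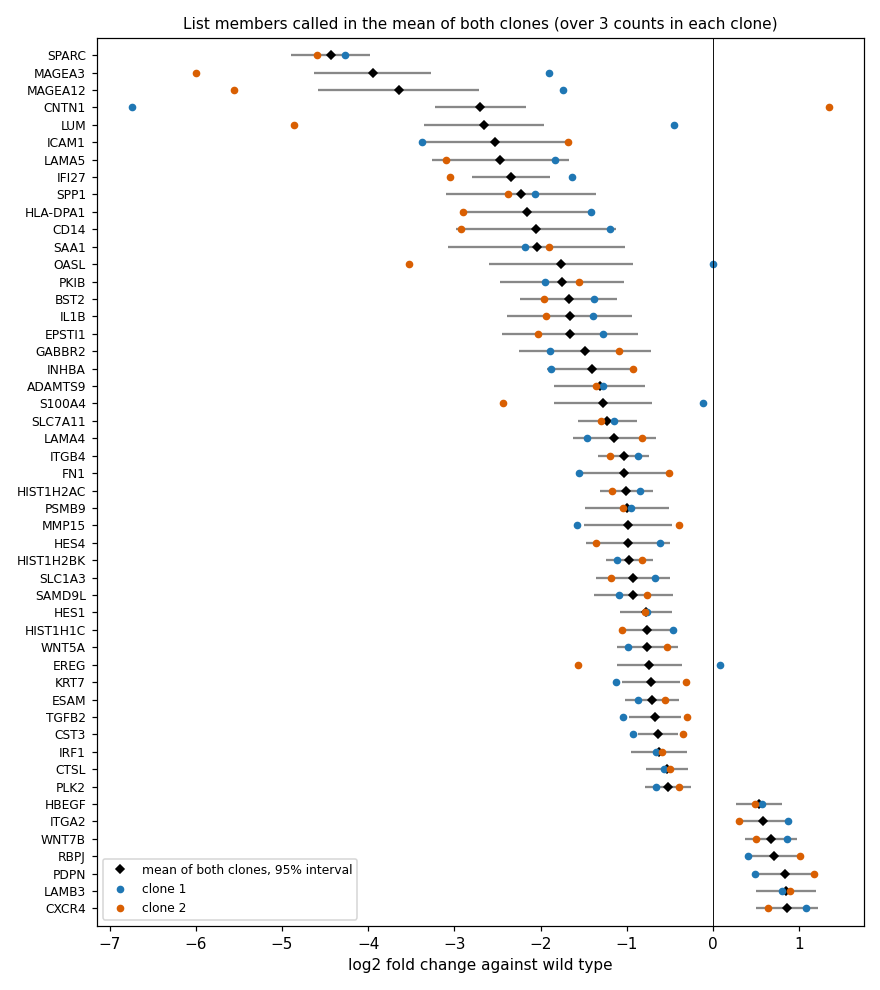
Log2 fold changes against wild type of the list members called in the mean of both clones that had over 3 counts in each clone: black diamonds with 95% intervals for the mean, blue points for clone 1 and orange points for clone 2. For SPARC, HES1, SLC7A11 and ITGB4 the clones lie together, while CNTN1, LUM, OASL and S100A4 owe their mean mostly to 1 clone.

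Replication-dependent histones gave 3 lower genes of 10 tested, 0 higher and 7 not passing (median −0.40). HIST1H2BK had 55.7, 44.9 and 48.3 CPM in wild type and 20.5 to 29.4 CPM in the knockouts (log2 fold change −0.97, SE 0.13, edgeR adjusted p = 0.000363). HIST1H2AC had 28.6, 24.7 and 28.8 CPM against 10.9 to 17.1 CPM (−1, SE 0.15, adjusted p = 0.000910), and HIST1H1C had 35.6, 34.9 and 34.8 CPM against 15 to 29.4 CPM (−0.76, SE 0.13, adjusted p = 0.00314). These core and linker histone genes were lower in all 6 libraries and held in all 9 leave-one-out fits. Over the same libraries 0 of 35 DNA replication genes were called (median 0.05, 1 at an unadjusted p under 0.05) and 0 of 31 mitosis genes (median 0.01, 1 at that level).

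Nutrient transport and growth factor genes added single members. SLC7A11, the cystine importer that supplies glutathione synthesis, had 90.9, 79.8 and 126 CPM in wild type, 35.6, 41.6 and 56.6 in clone 1, and 36.7, 37.3 and 46.1 in clone 2. Both clones were low (log2 fold change −1.22, SE 0.16, edgeR adjusted p = 0.000316, clone difference −0.15 with a 95% interval of −0.56 to 0.25) and held in all 9 fits. SLC1A3, a glutamate and aspartate importer, had 20.2, 35.7 and 19.4 CPM against 9.53 to 19.1 CPM (−0.93, SE 0.20, adjusted p = 0.0241; it ended without wild-type replicate 2, 0.378, and without clone 1 replicate 3 or clone 2 replicate 1 or 3, up to 0.0595). The other 17 of 19 transporters did not pass (median −0.01). HBEGF, an EGF receptor ligand, had 101, 87.8 and 110 CPM in wild type and 127 to 164 CPM in the knockouts (0.53, SE 0.13, adjusted p = 0.0410), but held in 3 of 9 fits (it ended without wild-type replicate 1 or 2, any clone 1 replicate or clone 2 replicate 2, up to 0.278).

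Besides BMP5, a TGF-beta family ligand that the list used here does not hold, a few ligands of the TGF-beta and WNT families changed. INHBA, a subunit of activin, had 28.7, 19.7 and 16.2 CPM in wild type, 8.55, 4.66 and 4.29 in clone 1, and 15.7, 9.93 and 8.40 in clone 2 (log2 fold change −1.41, SE 0.25, edgeR adjusted p = 0.00535). TGFB2 had 49.2, 58.2 and 74.9 CPM, 24.4 to 35.0 in clone 1 and 47.8 to 50.1 in clone 2, the last overlapping wild type (−0.67, adjusted p = 0.0183). Both were lower in clone 1 than in clone 2 (0.95 and 0.74, adjusted p = 0.0255 and 0.00391), and the other 24 of 26 genes of that list did not pass (median −0.09). WNT7B had 27.7, 39.6 and 39.6 CPM in wild type and 49.7 to 75.3 CPM in the knockouts (0.68, SE 0.14, adjusted p = 0.0179), while WNT5A fell from 63.4, 42.2 and 39.2 CPM to 21.7 to 41.7 CPM with some overlap (−0.76, SE 0.17, adjusted p = 0.0261). Each of TGFB2, WNT7B and WNT5A dropped out without 1 or more libraries: TGFB2 without wild-type replicate 2 or 3 or clone 1 replicate 3 (up to 0.162), WNT7B without wild-type replicate 1 or clone 1 replicate 2 (up to 0.128) and WNT5A without wild-type replicate 1 or clone 1 replicate 3 (up to 0.228) and with the GC and length correction (0.0563).

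For lymph node homing, the theme of the series title, 2 of 14 genes tested were higher, 0 were lower and 12 did not pass (median 0.02). Besides CXCR4 this was PDPN, podoplanin, a glycoprotein of lymphatic endothelium and invasive tumour edges. It had 31.0, 26.3 and 24.8 CPM in wild type, 42.5, 37.6 and 35.0 in clone 1, and 79.2, 55.8 and 50.9 in clone 2 (log2 fold change 0.83, SE 0.15, edgeR adjusted p = 0.00676). It held in all 9 fits, and clone 2 had more than clone 1 (0.69, adjusted p = 0.00595). VEGFC, the lymphatic growth factor, did not pass (0.22, adjusted p = 0.684). Summed endothelial markers were 22.2 to 24.2 CPM in wild type and 14.7 to 17.5 CPM in the knockouts. Of these ESAM, a junction protein, fell from 19.2, 17.0 and 17.2 CPM to 8.39 to 12.8 CPM (−0.71, adjusted p = 0.0170; it ended without any 1 wild-type library, up to 0.114).

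Among cancer-testis genes, normally silent outside the germ line and mostly on the X chromosome, 7 of 11 tested were lower, 0 higher and 4 did not pass. Reads of the MAGEA family are shared among near-identical copies, which makes these counts uncertain. MAGEA6 had 535 counts in wild type against 2 in the knockouts (ratio 485, counting interval 134 to 4014). MAGEA3 had 6.95, 6.73 and 7.24 CPM in wild type, 1.5, 1.76 and 2.34 in clone 1, and 0.0619, 0.194 and 0.0474 in clone 2 (log2 fold change −3.95, SE 0.32, edgeR adjusted p = 2.25e-06). MAGEA12 had 7.87, 9.52 and 7.39 CPM, 2.19 to 2.95 in clone 1 and 0 to 0.474 in clone 2 (−3.65, SE 0.44, adjusted p = 0.000203). MAGEA3 and MAGEA12 were thus lower in both clones but more so in clone 2. DDX53 was as high in clone 1 as in wild type, with 340 counts against 343, and had 2 in clone 2. Its fall in the mean therefore came from clone 2. CT83, XAGE2 and NAA11 were likewise at 0 in clone 2, while clone 1 had more than wild type (log2 fold change 2.50, 1.90 and 1.72), so 4 of the 7 calls were not a fall in both clones. CT83 and XAGE2 were named after their values were seen.

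Neuronal adhesion and synaptic genes showed 5 lower of 21 tested, 0 higher and 16 not passing (median −0.06). NRXN3 was at 0 in both clones. NTNG1, a netrin-like adhesion protein, had 53 counts in wild type against 11 in the knockouts (ratio 8.73, interval 4.51 to 18.5), and GRIK2, a kainate receptor subunit, 60 against 25 (4.35, 2.69 to 7.24) with 0 in clone 2. GABBR2, a GABA receptor subunit named after its values were seen, fell from 2.33 to 2.96 CPM to 0.428 to 1.57 CPM (log2 fold change −1.49, edgeR adjusted p = 0.0471), and stayed called only without clone 1 replicate 3 or clone 2 replicate 3 (up to 0.273 in the other leave-one-out fits) and not with the GC and length correction (0.0501). CNTN1, a neural adhesion molecule, had 17.0, 12.1 and 22.5 CPM in wild type, 0.0518 to 0.285 in clone 1 and 41.6 to 44.7 in clone 2. Its negative mean (−2.70, adjusted p = 9.62e-06) thus joined a fall in clone 1 to a rise in clone 2. GRIK2 was lost without wild-type replicate 1 or 2 (up to 0.122) and NTNG1 without any 1 wild-type library or clone 1 replicate 2 or 3 (up to 0.125).

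Cyclic nucleotide signalling added PKIB, the sister inhibitor of PKIA, to the shared decreases. It had 4.03, 6.73 and 2.61 CPM in wild type and 0.835 to 1.98 CPM in the knockouts (log2 fold change −1.75, SE 0.34, edgeR adjusted p = 0.00957; 0.193 without wild-type replicate 2). Of 27 genes of that list 3 were lower, 0 higher and 24 did not pass (median 0.01). The third, PDE1C, was not lower in clone 2. PKIA and PKIB were thus both below wild type in all 6 libraries.

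Called genes that the 2 clones did not share show what the mean can hide. PCSK1N, a neuroendocrine secretory protein, had 21.8, 15.4 and 17.5 CPM in wild type, 0 counts in all 3 clone 1 libraries and 26.6 to 31.0 CPM in clone 2. PTCHD1 (308 counts in wild type, 0 in clone 1, 417 in clone 2) and the phosphodiesterase PDE1C (839, 3 and 769) had the same pattern. EYA1, a transcriptional coactivator and phosphatase (360, 413 and 0), COL4A5, a basement membrane collagen chain (318, 641 and 0), and NAA11, an acetyltransferase (268, 795 and 0), were missing from clone 2 instead. All 6 were called lower in the mean, although the wild-type level was only 0.307 (NAA11) to 0.985 (PDE1C) of that in the clone that kept the gene. The fitted mean change of such genes depends on the prior count and is not given.

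Several lists had no call in the mean, and 33.9% of all genes differed between the clones. Contractile and actin-binding genes had 0 of 28 called by edgeR (7 at an unadjusted p under 0.05), with medians of −0.66 in clone 1 and 0.29 in clone 2 and 23 members different between the clones. DNA replication genes had 0 of 35 called and 23 different, and mitochondrially encoded mRNAs 0 of 13 called (0 at an unadjusted p under 0.05) and 12 different, with medians of 0.49 in clone 1 and −0.94 in clone 2. The list of YAP targets and Hippo genes had 0 of 24 called (2 at that level) and 13 different. Cytosolic ribosomal protein genes had 0 of 57 called (1 at that level, median 0.14), and 9 of them differed between the clones.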

How the data were processed

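Raw counts per gene, as the authors deposited them, came in a pair of tables that repeat the same wild-type columns (3 of 3 identical); these were taken once. The tools named in the submitters' processing notes are STAR, Subread, featureCounts and DESeq2, with build GRCh38. Their versions, the annotation release and the strand setting were not given in the sources used here. Gene lengths (bases) are those deposited, per the file headers.

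Differential expression used edgeR 4.0.16 in R 4.3.3: TMM, filterByExpr with a minimum count of 10 (16921 of 56505 symbols kept), then a quasi-likelihood fit (robust) of 9 libraries as 3 groups (6 residual degrees of freedom, biological coefficient of variation 20.3%). Tests are two-sided with Benjamini-Hochberg adjustment over all genes and a threshold of 0.05. The script was tested on simulated data. CPM use TMM-scaled totals. A fold against 0 counts uses a floor of 3 counts over the group. Libraries of a group differed by a chi-square per gene of 17.4 or more, so none was counted as a duplicate. Alternatives used limma 3.58.1, DESeq2 1.42.0 and mgcv 1.9.3 for the GC trend.

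The members and lists were chosen with earlier results of these data known. The naming rule took JAG1; up to 12 protein-coding genes per direction that were called, on one side and at 5 CPM or more, ranked by the smaller clone change; up to 4 long noncoding RNAs per direction; up to 6 called genes carried by 1 clone; up to 4 called members per list; and any gene of the Notch lists. Symbols without an established name were passed over. Genes taken by the rule that are not described are not reported here.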

Additional observations from a re-analysis of the deposited data

Results flagged for a closer look

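Some genes changed by different amounts in the 2 clones, by edgeR's test of clone 2 minus clone 1 in the same 9 libraries (adjusted p of at most 0.0482, values are log2 differences). Levels were higher in clone 2 for ZDHHC21 (0.65), BMP5 (1.15), KRT7 (0.81), ICAM1 (1.70), PDPN (0.69), CST3 (0.57), FN1 (1.05), CNTN1 (8.09), RBPJ (0.61), INHBA (0.95) and TGFB2 (0.74). They were lower in clone 2 for JAG1 (−0.50), AHRR (−0.62), MAL2 (−0.66), LINC01322 (−1.79), RGMB-AS1 (−0.74), LINC00973 (−0.46), MAGEA3 (−4.09), VIPR1 (−1.02), MAGEA12 (−3.81), EREG (−1.65), ITGA2 (−0.57), IFI27 (−1.41), OASL (−3.52), HLA-DPA1 (−1.48), LUM (−4.40), CD14 (−1.74), S100A4 (−2.31) and HIST1H1C (−0.59). In the first group the ligands INHBA and TGFB2 and the matrix gene FN1 were reduced less in clone 2, and in the second the interferon genes IFI27 and OASL and the MAGEA genes were reduced more there.

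For another 9 genes 1 clone had 0 to 3 counts, so that the fitted difference depends on the prior count and gives a direction only: PCSK1N (12.20), EYA1 (−10.14), PTCHD1 (10.15), COL4A5 (−10.79), PDE1C (7.83), NAA11 (−11.09), DDX53 (−7.17), CST7 (10.12) and GRIK2 (−6.14).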

How the results depend on the processing

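As reported, edgeR called 295 genes (37 higher, 258 lower; 204 on one side). No filter on low counts gave 565 (79, 486) and DESeq2 476 (110 higher). A test against 1.5-fold gave 122 (1, 121; 86 on one side), and 1 group of 6 knockout libraries 32 (0, 32; 32). The line as a random effect gave 2 (0, 2; 2), with JAG1 at −1.29 (adjusted p = 0.812) and a correlation within a line of 0.48; the cause of its few calls was not tested. A GC and length correction gave 56 higher genes. Leaving out 1 library gave 164 to 320 calls, 13 to 45 higher, 151 to 275 lower and 119 to 233 on one side, the lowest without wild-type replicate 2; higher calls were 14 without wild-type replicate 1, 22 without clone 1 replicate 2 and 20 without clone 1 replicate 3. With 1 knockout group COL4A5 (0.15), NAA11 (0.72) and CNTN1 (0.35) turned positive, each being at or near 0 in 1 clone. Under every alternative the 204 genes on one side kept their sign where they were fitted (197 of them with the GC and length correction). Their selection for libraries on one side makes another sign unlikely, so the kept sign is no separate support. RLE size factors changed none of 147 named genes.

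Replicate numbers are shared by the groups. Same-numbered libraries correlated at −0.097 to 0.269 and differently numbered ones at −0.268 to 0.215, so pairing is not established. Between wild type and clone 2 the same-numbered pairs were at 0.223 to 0.269 and the others at −0.246 to −0.011. In the other pairs of groups these ranges overlapped, and what the numbers mark was not tested. With the replicate block 627 genes were called (139, 488), and with the GC and length correction as well 679 (206, 473).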
